A study of Mus musculus with 18 samples.

Results

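The cytochrome P450 family 2 genes were examined in liver, as every gene whose platform symbol begins with Cyp2 followed by a letter on a probe set that carries that symbol alone. The rule found 35 genes, read by 42 probe sets, among 18193 genes with such a probe set, and each gene was read by its probe set with the highest mean. Of the 35, 29 passed the filter on low values and were among the 12881 genes tested. The other 6 (Cyp2b13, Cyp2b19, Cyp2c65, Cyp2g1, Cyp2j11 and Cyp2j13) lay below it. A probe set shared by Cyp2a5 and Cyp2a4 names 2 genes and was left out, so neither of these genes was measured here.

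The mice were males of the strain written C56BL/6J in one label and C57BL/6J in the growth protocol, 5 weeks old when feeding began. They ate AIN-93G, a purified rodent diet, alone (control) or with quercetin, a plant flavonol, at 0.05% or at 1%, for 20 weeks. Each diet had 12 mice, kept 3 to a cage, and 6 per diet have an array, each made from the liver RNA of 1 mouse and hybridised to an Affymetrix mouse array. No label gives the cage of a mouse, so the part of the cage in any difference was not tested. The comparisons asked how each dose of quercetin changed the hepatic level of these transcripts.

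Values are log2 of the deposited intensity plus 16, after the 18 arrays were brought to 1 common distribution by quantile normalization, and are called log2 intensity. A difference of 1 on this scale is a doubling, except near the floor of 4, where the added 16 shrinks differences. Brightness differs between probes for technical reasons, so no gene is ranked against another by level. Quantile normalization can also press the brightest probe sets together. This may concern Cyp2e1, above 13, and the members just below 13, such as Cyp2f2, Cyp2d10, Cyp2d9 and Cyp2d26. Its part in how steady these genes look was not tested. Of the hepatocyte markers 9 of 10 were on the array and all 9 passed the filter, and their mean deviation in single mice ran from -0.08 to 0.11. Their direction depended on the scaling. After quantile normalization 6 of the 9 were higher at 1% against control and 4 at 0.05%. With values as deposited all 9 were lower in both comparisons (medians -0.10 and -0.08), as they were after a median shift (-0.05 and -0.08). Of the pancreas and fat markers 3 of 8 passed. In a piece of liver, fewer cells of a type and less RNA per cell cannot be told apart.

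CYP2 enzymes are heme-containing monooxygenases of the endoplasmic reticulum that take electrons from NADPH through cytochrome P450 reductase. In liver they oxidise drugs, steroids, fatty acids and other foreign or endogenous lipids. The nuclear receptors CAR and PXR induce several Cyp2b and Cyp2c genes, the pulse pattern of growth hormone sets the sex bias of others, and inflammation lowers many of them. In the mouse annotation the 11 Cyp2c members are on chromosome 19, the 8 Cyp2d members on chromosome 15, the 5 Cyp2j members on chromosome 4, Cyp2u1 on chromosome 3 and the other 10 on chromosome 7.

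Promoters are shown for Cyp2b9, Cyp2c38, Cyp2b10 and Cyp2c70, 4 of the 5 tested members with the largest SD over mice, and for Cyp2b13, whose promoter is nearly that of Cyp2b9, as the 250 bases before the start of the gene, read 5′ to 3′ on the gene's own strand, from RefSeq on GRCm38.p6. Capitals mark every match, on either strand, to 1 of 7 short motifs named below. The first 3 are Cyp2b genes on the plus strand, Cyp2b9 at chr7:26173159-26173408, its close copy Cyp2b13 at chr7:26061245-26061494 and Cyp2b10 at chr7:25897408-25897657. The other pair is on the minus strand, Cyp2c38 at chr19:39463076-39463325 and Cyp2c70 at chr19:40187287-40187536.
Cyp2b9: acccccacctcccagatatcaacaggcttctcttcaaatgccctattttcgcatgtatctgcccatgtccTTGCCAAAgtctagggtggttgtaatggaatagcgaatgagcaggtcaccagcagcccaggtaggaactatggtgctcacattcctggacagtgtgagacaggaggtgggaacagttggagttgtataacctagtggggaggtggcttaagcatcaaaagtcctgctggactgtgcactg
Cyp2b13: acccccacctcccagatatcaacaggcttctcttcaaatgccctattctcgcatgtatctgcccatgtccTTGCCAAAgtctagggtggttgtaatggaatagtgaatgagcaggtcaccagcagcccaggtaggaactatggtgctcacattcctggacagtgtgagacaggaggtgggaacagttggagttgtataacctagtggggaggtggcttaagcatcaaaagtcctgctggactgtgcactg
Cyp2b10: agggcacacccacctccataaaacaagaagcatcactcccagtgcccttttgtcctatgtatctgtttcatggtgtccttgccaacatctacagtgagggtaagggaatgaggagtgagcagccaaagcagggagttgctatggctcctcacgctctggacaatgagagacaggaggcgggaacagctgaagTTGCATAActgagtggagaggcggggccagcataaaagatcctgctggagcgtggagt
Cyp2c38: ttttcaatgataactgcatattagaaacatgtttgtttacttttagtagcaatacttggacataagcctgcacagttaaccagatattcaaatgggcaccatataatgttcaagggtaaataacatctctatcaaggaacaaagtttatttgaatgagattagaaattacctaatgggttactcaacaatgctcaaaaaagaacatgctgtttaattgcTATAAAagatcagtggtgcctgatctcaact
Cyp2c70: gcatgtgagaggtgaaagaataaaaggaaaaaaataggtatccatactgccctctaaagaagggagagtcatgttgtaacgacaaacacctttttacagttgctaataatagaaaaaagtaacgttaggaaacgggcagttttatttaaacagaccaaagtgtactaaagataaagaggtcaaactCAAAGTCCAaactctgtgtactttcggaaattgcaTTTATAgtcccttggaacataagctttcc

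The RefSeq table held promoters for 27 of the 35 members, 29 in all. For each of the 27 genes 1 promoter was aligned, over 250 bases before and 50 after the start. Cyp2b9 and Cyp2b13 shared 298 of 300 bases (99.3%). Cyp2c37 and Cyp2c50 shared 86.6%, Cyp2d9 and Cyp2d10 83.3%, Cyp2c38 and Cyp2c39 78.1% and Cyp2b9 and Cyp2b10 72.9%. Cyp2c38 and Cyp2c70 shared 51.0%, which is within the range of pairs from different subfamilies (44.0% to 54.4% over 293 pairs, median 50.1%). Pairs of 1 subfamily had a median of 54.0% over 58 pairs.

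The motif TATAAA, the letters of the TATA box, was in 13 of the 29 member promoters and in 13.6% of the 32851 promoters of that length in the table. Matches were counted at any position, with first bases from -162 (Cyp2c65) to -3 (Cyp2c39) relative to the start, so not all need be TATA boxes. TATAAA marks the capitals of Cyp2c38 and the last capitals of Cyp2c70, where it lies on the other strand. TTGCNNAA, bound by C/EBP factors, was in 6 of the 29 and in 10.8% of all, and gives the capitals of Cyp2b9 and Cyp2b13. TTATGNAA, the D-box of PAR bZIP factors, was in 2, Cyp2b10 and Cyp2b19, and in 3.38% of all. In both of these it covers the same 8 bases as a match to TTGCNNAA. CAAAGTCCA, an HNF4A site, was in 3, Cyp2c65, Cyp2c68 and Cyp2c70, and in 0.475% of all, and gives the first capitals of Cyp2c70. TTCNNNGAA, the STAT5 site, was in 1 member promoter, that of Cyp2j11, and in 8.3% of all. The longer palindrome of HNF1 was in 0 and in 0.00913% of all, and the direct repeat of AGGTCA with 4 bases between, read by nuclear receptors, was in 0 and in 0.0152% of all. These are matches of letters in 1 short window.

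No member passed the threshold in any comparison of diets. With limma, an adjusted p under 0.05 was reached by 0 of 29 members at 1% against control, where 0.00776% of all tested genes passed, by 0 at 0.05% against control (0% of all) and by 0 at 1% against 0.05% (0% of all). The F test over the 3 diets called 0 members as well (0.00776% of all). The smallest adjusted p of a member from limma was 0.309, 0.599 and 0.355 in the 3 comparisons and 0.368 in the F test. At an unadjusted p under 0.05 there were 4 members at 1% against control (13.8%, against 8.81% of all genes), 3 at 0.05% against control (10.3%, against 5.43%) and 4 at 1% against 0.05% (13.8%, against 9.07%). The F test had 6 (20.7%, against 8.56%).

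The changes of most members were small beside the spread between mice. At 1% against control 12 members were higher and 17 lower, with 49.4% of all genes higher, and the median log2 change was -0.06 over members and -0.002 over all tested genes. That split depended on the scaling: with the values as deposited it was 7 higher and 22 lower, and after a median shift 9 and 20. At 0.05% against control 17 were higher and 12 lower (46.9% of all genes higher), with a median of 0.02 and -0.01 over all, and both other scalings turned the split to 12 higher and 17 lower. At 1% against 0.05% 6 were higher and 23 lower, while 48.8% of all genes were lower, with a median of -0.13 over members and 0.005 over all. Here the other scalings gave 5 and 24, and 6 and 23. The comparisons share mice, so their counts are not independent of each other.

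**Figure D1:**
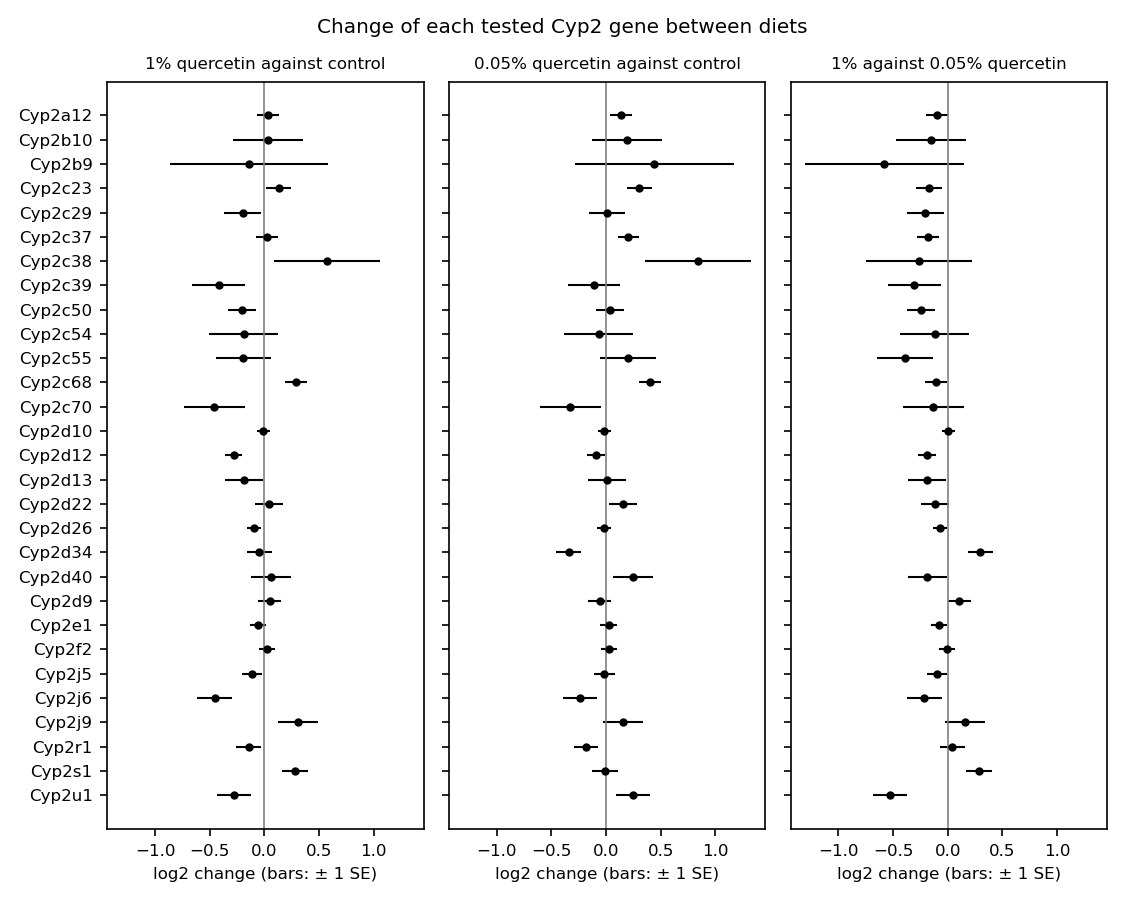
Log2 change of each of the 29 tested genes (points, with bars of 1 standard error either side) in the 3 comparisons, by gene in rows. Cyp2b9 has the widest bars (0.73), and 23 of 29 points lie below 0 in the panel of 1% against 0.05%.

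Of the 4 Cyp2b members, 2 passed the filter, and both varied more between mice of 1 diet than between diets. Cyp2b9, a form of female liver in mice, had the largest SD over the 18 mice of all tested members (1.34). Its lowest, median and highest values were 4.25, 4.79 and 8.59 in controls, 4.52, 4.86 and 8.19 at 0.05%, and 4.54, 5.09 and 6.11 at 1%. Control replicate 3 (8.59) and 0.05% replicates 5 (8.19) and 4 (7.83) were high, the next mouse was 1% replicate 1 at 6.11, and the diets overlapped. The log2 change was -0.14 ± 0.73 (SE) at 1% against control (limma adjusted p = 0.970), 0.44 ± 0.73 at 0.05% against control (adjusted p = 0.970) and -0.58 ± 0.73 at 1% against 0.05% (adjusted p = 0.845). Single mice set these values: the first was 0.50 without control replicate 3, and the second was -0.03 without 0.05% replicate 5 and 1.08 without control replicate 3.

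Cyp2b10, the classic target of CAR, had its 3 highest values in the same 3 mice, at 6.25 in control replicate 3, 5.71 in 0.05% replicate 4 and 5.63 in 0.05% replicate 5. Its lowest, median and highest values were 4.14, 4.37 and 6.25 in controls, 4.08, 4.70 and 5.71 at 0.05%, and 4.52, 4.67 and 5.10 at 1%. The log2 change was 0.03 ± 0.32 at 1% against control (limma adjusted p = 0.987), 0.19 ± 0.32 at 0.05% against control (adjusted p = 0.970) and -0.16 ± 0.32 between the doses (adjusted p = 0.911). Without control replicate 3 the first 2 changes of Cyp2b10 were 0.35 and 0.50. Without 0.05% replicate 4 the second was 0.02 and the last 0.01. Both Cyp2b10 probe sets whose identifiers end in _s_at, a suffix for probes that can match more than 1 transcript, were high there: the other one read 5.23, 5.42 and 5.08 in control replicate 3 and 0.05% replicates 4 and 5, with 5.20 in 1% replicate 5 as the highest value in any other mouse. A further Cyp2b10 probe set without that suffix stayed between 4.11 and 4.48 in all 18 mice (SD 0.10). The probe sets of Cyp2b10 thus disagree, with changes at 1% against control of 0.03, -0.23 and -0.08 in the order given.

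Cyp2b13, another form of female liver, lay below the filter with a mean of 4.55, and its highest values were again control replicate 3 (5.34) and 0.05% replicate 4 (5.08), while 0.05% replicate 5 read 4.19. Cyp2b19, known from skin, had a mean of 4.42 and a range of 4.03 to 4.95.

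The same 3 mice were at one end of the range for Cyp2d9 and for the list means of other genes with a sex bias in liver. Cyp2d9, a male-biased testosterone 16-alpha hydroxylase, had its lowest values in them: 12.42 in control replicate 3, 12.58 in 0.05% replicate 4 and 12.37 in 0.05% replicate 5. With values as deposited, 0.05% replicate 2 took the place of 0.05% replicate 4 among the lowest 3, and after a median shift 1% replicate 4 did. Outside the family, the mean deviation of 16 male-biased genes was -1.09, -0.61 and -1.09 in control replicate 3 and 0.05% replicates 4 and 5, and that of 15 female-biased genes was 0.75, 0.54 and 0.83. The nearest of the other mice were 1% replicate 4 for the male-biased genes (-0.35) and 0.05% replicate 6 for the female-biased ones (0.38). Over all mice the male-biased mean ran from -1.09 to 0.70 in controls, from -1.09 to 0.56 at 0.05% and from -0.35 to 0.20 at 1%. Not every male-biased gene followed the list mean: Elovl3 was lowest in 1% replicate 6 (10.14) and read 12.36, 12.21 and 11.92 in these 3 mice. The mean of 26 acute phase genes was low in these mice (-0.95, -0.87 and -0.96) but lowest in 0.05% replicate 6 (-1.05), with -0.72 in 0.05% replicate 1 and -0.61 in control replicate 1. Cyp2c38 was at 9.86, 8.90 and 9.76 in the 3 mice, and 0.05% replicates 1 (9.07) and 6 (9.05) lay above the middle one of these. Cyp2c39, a retinoic acid hydroxylase, reached its highest value of 6.28 in control replicate 3. The part of these genes in the Cyp2b values was not tested.

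**Figure D2:**
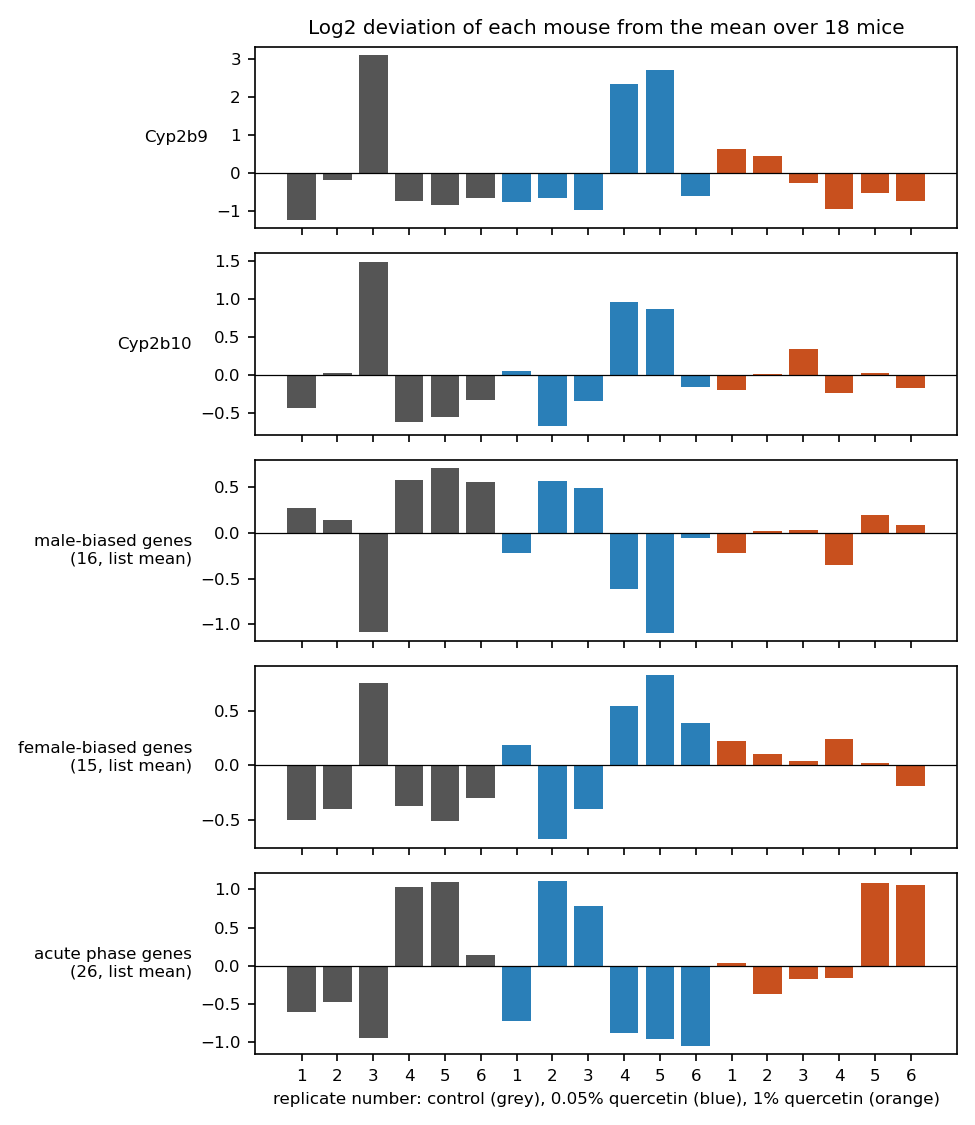
Deviation of each of the 18 mice (bars, by replicate number, coloured by diet) from the mean over all mice in log2 intensity, for Cyp2b9, Cyp2b10 and the means of 3 gene lists. Control replicate 3 and 0.05% replicates 4 and 5 carry the tallest Cyp2b9 bars and the lowest male-biased means (-1.09, -0.61 and -1.09).

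In the Cyp2c subfamily 10 of 11 members were tested. At 1% against control 4 were higher and 6 lower, at 0.05% against control 7 were higher and 3 lower, and at 1% against 0.05% 0 were higher and 10 lower, none past the threshold. With values as deposited and after a median shift the counts were 3 higher and 7 lower, 5 and 5, and 0 and 10. Cyp2c65, known from the gut, lay below the filter (mean 4.33).

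Cyp2c68 had the smallest p of all members at 0.05% against control. Its lowest, median and highest values were 11.11, 11.51 and 11.66 in controls, 11.55, 11.90 and 11.99 at 0.05%, and 11.58, 11.79 and 11.89 at 1%. All 6 mice of each quercetin diet lay above the control mean, although the lowest quercetin mice overlapped the highest controls. The log2 change was 0.40 ± 0.10 at 0.05% against control (unadjusted p = 0.000769, limma adjusted p = 0.599) and 0.29 ± 0.10 at 1% (adjusted p = 0.400). It was -0.11 ± 0.10 between the doses (adjusted p = 0.777).

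Cyp2c38, an enzyme that oxidises arachidonic acid, had the second-largest SD (0.94). Its lowest, median and highest values were 6.97, 7.39 and 9.86 in controls, 7.24, 8.98 and 9.76 at 0.05%, and 7.47, 8.56 and 8.84 at 1%. The diets overlapped, with a change of 0.84 ± 0.48 at 0.05% against control (limma adjusted p = 0.930), 0.58 ± 0.48 at 1% (adjusted p = 0.764) and -0.27 ± 0.48 between the doses (adjusted p = 0.893). Without control replicate 3 the first was 1.27 and the next 1.00, and without 0.05% replicate 5 the last was -0.03. Cyp2c70, which makes the muricholic bile acids of mice, read 11.73, 12.42 and 12.86 in controls, 11.24, 11.95 and 12.78 at 0.05%, and 11.42, 11.71 and 12.68 at 1%. Its change was -0.46 ± 0.28 at 1% against control (limma adjusted p = 0.655), -0.33 ± 0.28 at 0.05% (adjusted p = 0.952) and -0.13 ± 0.28 between the doses (adjusted p = 0.911).

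Cyp2c38 and Cyp2c70 ran opposite to each other from mouse to mouse. In 18 of 18 mice, 6 of 6 on each diet, one gene was above its median when the other was below. Among the 406 pairs of tested members this was the 1 pair with all mice on opposite sides, and the median over pairs was 8 mice. The pattern was picked after the values were seen. It was also found in 18 of 18 mice with values as deposited and after a median shift. Cyp2c38 had no mouse between 7.80 and 8.55, and Cyp2c70 none between 11.99 and 12.36, with 9 mice on each side. These gaps were 0.26 and 0.23 of each gene's range, and the largest gap of a tested member ran from 0.11 to 0.43 of its range. Many of the other gaps cut off a few mice at an end, as in Cyp2c37, with 2 mice above a gap of 0.43. They thus do not tell how common a gap in the middle is. The 9 mice with the higher Cyp2c38 values were 1 control (replicate 3), 4 mice at 0.05% (replicates 1, 4, 5 and 6) and 4 at 1% (replicates 1 to 4).

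The acute phase genes followed this division in part, and the male-biased and female-biased list means followed it without overlap. Their mean deviation was highest in 0.05% replicate 2 (1.11), control replicate 5 (1.09), 1% replicates 5 (1.08) and 6 (1.06), control replicate 4 (1.03) and 0.05% replicate 3 (0.78). All 6 of these mice were among the 9 with lower Cyp2c38 and higher Cyp2c70, together with control replicates 1, 2 and 6, where the acute phase mean was -0.61, -0.47 and 0.14. In the 9 mice with higher Cyp2c38 it ran from -1.05 in 0.05% replicate 6 to 0.04 in 1% replicate 1, so the sets of 9 overlapped. The mean of 10 Kupffer cell and macrophage markers was 0.33, 0.50, 0.36, 0.20, 0.21 and 0.12 in the same order of the 6 mice, within a range over all mice of -0.39 to 0.50, and 0.05% replicate 1 (0.23) and 1% replicate 4 (0.20), both with higher Cyp2c38, were in the same span. The male-biased mean ran from 0.08 in 1% replicate 6 to 0.70 in control replicate 5 in the 9 mice with lower Cyp2c38. In the 9 with higher Cyp2c38 it ran from -1.09 in 0.05% replicate 5 to 0.03 in 1% replicate 3, so these sets did not overlap. The female-biased mean ran from -0.68 in 0.05% replicate 2 to 0.02 in 1% replicate 5 in the 9 mice with lower Cyp2c38. In the 9 with higher Cyp2c38 it ran from 0.04 in 1% replicate 3 to 0.83 in 0.05% replicate 5, narrowly without overlap. The part of any of these in the Cyp2c values was not tested.

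**Figure D3:**
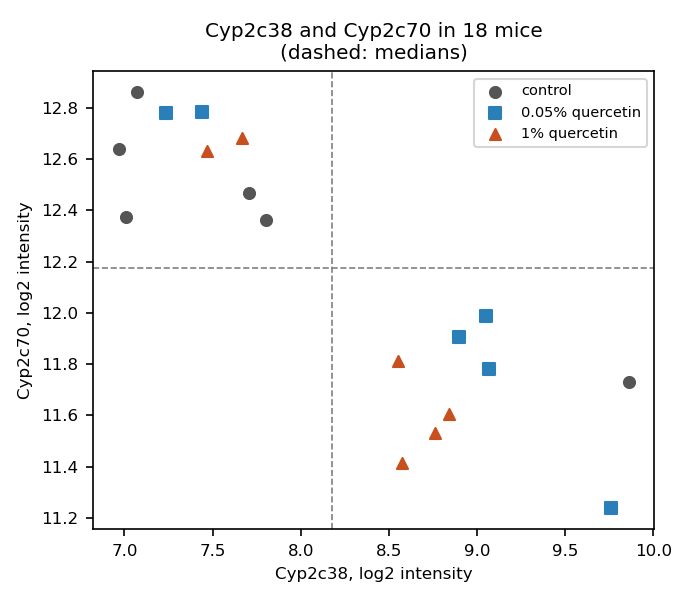
Log2 intensity of Cyp2c38 (horizontal axis) against Cyp2c70 (vertical axis) in 18 mice, marked by diet, with dashed lines at the medians. All 18 points lie in the upper left or lower right, and none has Cyp2c38 between 7.80 and 8.55.

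Cyp2c55, which CAR and PXR induce, read 5.60, 6.20 and 6.75 (lowest, median, highest) in controls, 5.60, 6.58 and 7.06 at 0.05% and 5.54, 6.06 and 6.49 at 1%. Its changes were -0.19 ± 0.25 at 1% against control (limma adjusted p = 0.863), 0.20 ± 0.25 at 0.05% (adjusted p = 0.967) and -0.39 ± 0.25 between the doses (adjusted p = 0.682). Cyp2c55 and Cyp2d22 were the 1 pair that lay on the same side of their medians in all 18 mice, and their log2 intensity was lowest among controls in replicate 4 for both (5.60 and 9.34). This holds for the Cyp2d22 probe set with the highest mean. The other Cyp2d22 probe set had its lowest value of all mice in 1% replicate 4 (8.91), where Cyp2c55 lay above its median (6.40).

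Cyp2c29, which CAR induces, read 12.31, 12.63 and 13.08 in controls, 12.45, 12.63 and 13.00 at 0.05% and 12.10, 12.46 and 12.84 at 1%, with a change of -0.20 ± 0.17 at 1% against control (limma adjusted p = 0.764), 0.01 ± 0.17 at 0.05% (adjusted p = 0.998) and -0.21 ± 0.17 between the doses (adjusted p = 0.752). Within the 1% diet, replicates 1 to 3 were at 12.78, 12.84 and 12.76 and replicates 4 to 6 at 12.16, 12.10 and 12.15. Controls divided in the same way, with 12.80, 13.08 and 13.00 in replicates 1 to 3 and 12.33, 12.31 and 12.47 in replicates 4 to 6, while the same sets overlapped at 0.05%. Cyp2c54, an epoxygenase of arachidonic acid, showed the same division at 1%, with 11.20, 11.18 and 11.10 in replicates 1 to 3 and 9.32, 10.03 and 10.46 in replicates 4 to 6, but not in controls, where replicate 1 (10.70) lay below replicate 6 (10.78). No label ties a replicate number to a cage or gives the numbers an order. At 1% the acute phase mean was -0.16, 1.08 and 1.06 in replicates 4 to 6, and 0.04, -0.36 and -0.17 in replicates 1 to 3. In controls it was 1.03, 1.09 and 0.14 in replicates 4 to 6, and -0.61, -0.47 and -0.95 in replicates 1 to 3. The part of the acute phase genes in these divisions was not tested. Cyp2c54 ran from 10.05 to 11.50 in controls and from 9.70 to 11.17 at 0.05%, and its changes were -0.19 ± 0.31 at 1% against control (limma adjusted p = 0.902), -0.07 ± 0.31 at 0.05% (adjusted p = 0.988) and -0.12 ± 0.31 between the doses (adjusted p = 0.933). Leaving out 1% replicate 4 turned the first to 0.06 and the last to 0.13. The second was 0.08 without control replicate 2 and 0.12 without 0.05% replicate 5.

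Cyp2c23, an arachidonic acid epoxygenase, read 11.17, 11.43 and 11.70 in controls, 11.41, 11.81 and 11.98 at 0.05% and 11.35, 11.59 and 11.88 at 1%. Its change of 0.30 ± 0.12 at 0.05% against control did not pass (unadjusted p = 0.0177, limma adjusted p = 0.875), with 5 of 6 mice above the control mean. It was 0.13 ± 0.12 at 1% against control (adjusted p = 0.778) and -0.17 ± 0.12 between the doses (adjusted p = 0.694). Cyp2c37, another enzyme of arachidonic acid, read 11.35, 11.53 and 11.61 in controls, 11.48, 11.62 and 12.01 at 0.05% and 11.38, 11.52 and 11.70 at 1%, with a change of 0.20 ± 0.10 at 0.05% against control (limma adjusted p = 0.920), 0.02 ± 0.10 at 1% (adjusted p = 0.964) and -0.18 ± 0.10 between the doses (adjusted p = 0.608). Its 2 highest mice were 0.05% replicates 1 (11.99) and 4 (12.01). Cyp2c50 read 12.38, 12.59 and 12.79 in controls, 12.43, 12.61 and 12.94 at 0.05% and 11.92, 12.41 and 12.72 at 1%, a change of -0.24 ± 0.13 between the doses (limma adjusted p = 0.592), -0.21 ± 0.13 at 1% against control (adjusted p = 0.660) and 0.04 ± 0.13 at 0.05% (adjusted p = 0.987). Cyp2c39 ran from 4.47 to 6.28 in controls, 4.58 to 5.50 at 0.05% and 4.41 to 5.26 at 1%.

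**Figure D4:**
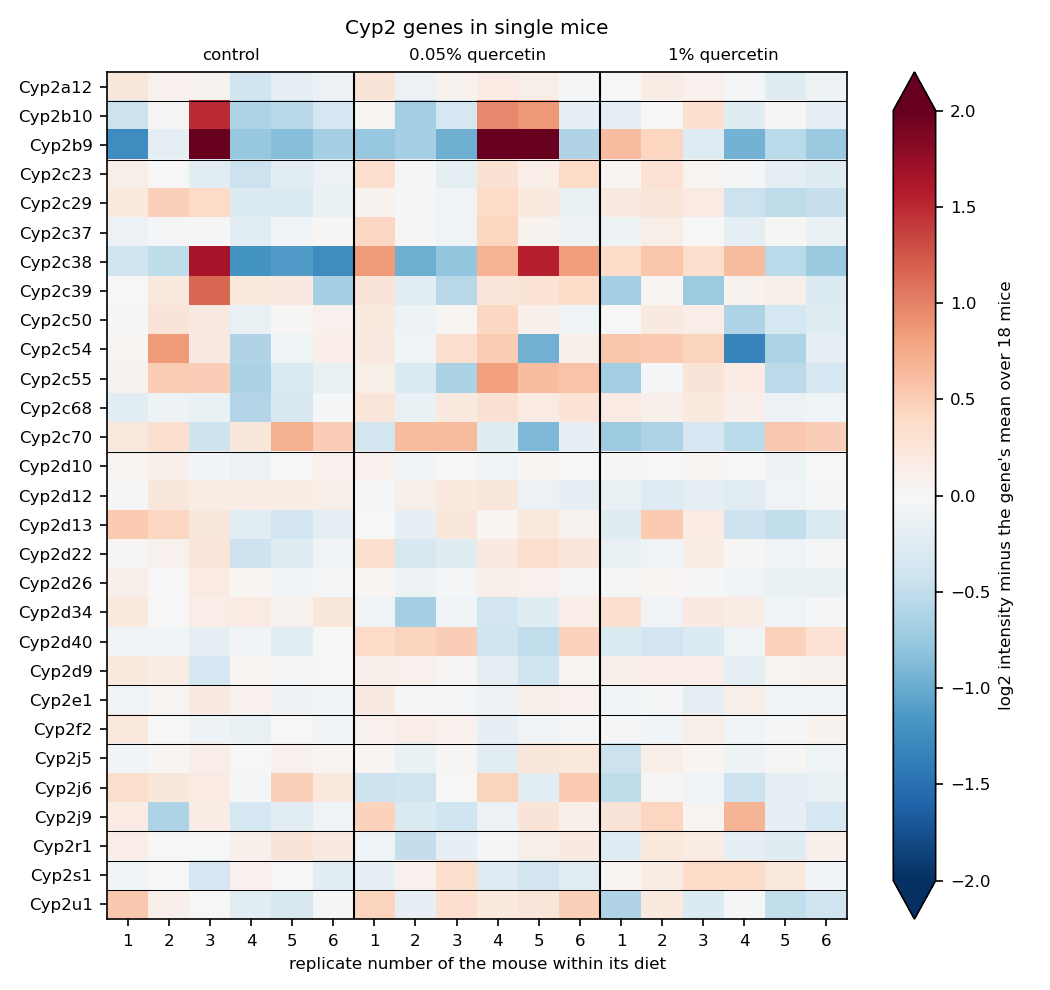
Deviation of log2 intensity from each gene's mean over the 18 mice (colour, red above and blue below, cut at 2 either side) for the 29 tested genes in rows, grouped by subfamily, and single mice in columns by diet. Cyp2b9 and Cyp2c38 vary the most between mice (SD 1.34 and 0.94), and Cyp2d10 the least (SD 0.06).

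All 8 Cyp2d members were tested, with 3 higher and 5 lower in each of the 3 comparisons, none past the threshold. At 1% against control the values as deposited gave 1 higher and 7 lower. They include the steadiest member, Cyp2d10, which stayed between 12.66 and 12.88 in all 18 mice, with changes of -0.01 ± 0.06 at 1% against control (limma adjusted p = 0.977), -0.02 ± 0.06 at 0.05% (adjusted p = 0.988) and 0.01 ± 0.06 between the doses (adjusted p = 0.987). Cyp2d26 was steady too, between 12.49 and 12.79, and its 3 changes were -0.09 ± 0.06 (adjusted p = 0.696), -0.02 ± 0.06 (adjusted p = 0.986) and -0.07 ± 0.06 (adjusted p = 0.768) in limma. Cyp2d9 read 12.42, 12.80 and 12.98 in controls, 12.37, 12.82 and 12.88 at 0.05% and 12.59, 12.86 and 12.91 at 1%. The changes of Cyp2d9 were 0.05 ± 0.10 (limma adjusted p = 0.934), -0.06 ± 0.10 (adjusted p = 0.970) and 0.11 ± 0.10 (adjusted p = 0.795) in the same order.

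Cyp2d12 had the smallest p of the family at 1% against control and was the 1 member whose groups did not overlap there (3.45% of members, against 0.598% of all genes). In the other comparisons 0 members had groups that did not overlap (0.326% of all genes at 0.05% against control and 0.675% between the doses). Its lowest, median and highest values were 5.34, 5.52 and 5.60 in controls, 5.19, 5.42 and 5.60 at 0.05%, and 5.12, 5.20 and 5.33 at 1%. The highest mouse at 1% (5.33) lay just under the lowest control (5.34). The change was -0.28 ± 0.08 (unadjusted p = 0.00236, limma adjusted p = 0.309), -0.09 ± 0.08 at 0.05% against control (adjusted p = 0.952) and -0.19 ± 0.08 between the doses (adjusted p = 0.501). These levels are dim, and with 1 in place of 16 added before the log the first change was -0.45 (limma adjusted p = 0.335).

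Cyp2d34 read 5.04, 5.20 and 5.28 in controls, 4.39, 4.90 and 5.19 at 0.05%, and 4.97, 5.12 and 5.39 at 1%, so the 0.05% mice were low and overlapped both other diets. The change was -0.34 ± 0.11 at 0.05% against control (unadjusted p = 0.00724, limma adjusted p = 0.831), 0.30 ± 0.11 at 1% against 0.05% (adjusted p = 0.478) and -0.05 ± 0.11 at 1% against control (adjusted p = 0.941). This gene is dim as well, and with 1 added before the log the first 2 changes were -0.71 and 0.62. Cyp2d40 was narrow in controls (5.36 to 5.56) and split at 0.05%, where replicates 4 and 5 read 5.17 and 5.08 and the other 4 mice 5.95 to 6.06. At 1% replicates 5 and 6 read 6.03 and 5.86 and the other 4 mice 5.18 to 5.50. Cyp2d13 ran from 8.33 to 9.35 over all mice. Cyp2d22, put forward as the mouse counterpart of human CYP2D6, ran from 9.34 to 10.11. Its other probe set differed in sign from the chosen one at 1% against control (-0.27 and 0.04) and at 0.05% against control (-0.03 and 0.15).

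The mean deviation of the 8 Cyp2d genes in single mice had a lowest, median and highest value of -0.09, 0.03 and 0.12 in controls, -0.08, 0.004 and 0.10 at 0.05%, and -0.09, -0.03 and 0.02 at 1%. The same mean over the 10 Cyp2c genes was -0.37, -0.08 and 0.33 in controls, -0.12, 0.16 and 0.39 at 0.05%, and -0.22, -0.16 and 0.14 at 1%. Over the 2 Cyp2b genes it was -0.84, -0.59 and 2.29 in controls, -0.68, -0.37 and 1.78 at 0.05%, and -0.59, -0.11 and 0.22 at 1%. The spread between mice of 1 diet was thus widest in the Cyp2b genes and narrowest in the Cyp2d genes, and the diets overlapped in all 3 subfamilies.

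Of the 5 Cyp2j genes, 3 were tested, and Cyp2j11 (mean 4.36) and Cyp2j13 (mean 4.68) lay below the filter. The latter was the member nearest below the filter of 4.69, and the tested member nearest above it was Cyp2s1 (mean 4.74). Cyp2j6 read 8.05, 8.30 and 8.56 in controls, 7.66, 7.97 and 8.61 at 0.05%, and 7.57, 7.91 and 8.10 at 1%. All 6 mice at 1% lay below the control mean and their range overlapped that of the controls, between 8.05 and 8.10. The change was -0.46 ± 0.16 (unadjusted p = 0.00918, limma adjusted p = 0.401), with -0.40 on the gene's other probe set. It was -0.24 ± 0.16 at 0.05% against control (adjusted p = 0.948) and -0.21 ± 0.16 between the doses (adjusted p = 0.722).

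Cyp2j5, an arachidonic acid epoxygenase of liver and kidney, read 12.00, 12.09 and 12.19 in controls, 11.85, 12.08 and 12.28 at 0.05% and 11.63, 12.03 and 12.16 at 1%. Its changes were -0.11 ± 0.09 at 1% against control (limma adjusted p = 0.763), -0.02 ± 0.09 at 0.05% (adjusted p = 0.988) and -0.10 ± 0.09 between the doses (adjusted p = 0.789). Its other probe set gave 0.28 at 0.05% against control and -0.31 between the doses. Cyp2j9, a fatty acid hydroxylase, ran from 5.72 to 6.51 in controls, 5.94 to 6.80 at 0.05% and 6.01 to 7.02 at 1%.

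Among the subfamilies with 1 tested gene, Cyp2u1, a fatty acid omega-hydroxylase, had the smallest p of the family between the doses. It read 7.07, 7.37 and 7.93 in controls, 7.22, 7.68 and 7.86 at 0.05%, and 6.78, 7.05 and 7.58 at 1%. All 6 mice at 1% lay below the mean at 0.05%, and the ranges overlapped. The change was -0.52 ± 0.15 at 1% against 0.05% (unadjusted p = 0.00314, limma adjusted p = 0.355), -0.28 ± 0.15 at 1% against control (adjusted p = 0.622) and 0.25 ± 0.15 at 0.05% against control (adjusted p = 0.937). Its other probe set gave -0.08, -0.29 and -0.21 in that order, so the probe sets differed in sign at 0.05% against control.

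Cyp2s1, an epithelial form induced through the aryl hydrocarbon receptor, read 4.40, 4.71 and 4.83 in controls, 4.37, 4.55 and 5.10 at 0.05%, and 4.69, 4.93 and 5.13 at 1%. The change was 0.28 ± 0.12 at 1% against control (unadjusted p = 0.0305, limma adjusted p = 0.502) and 0.29 ± 0.12 at 1% against 0.05% (adjusted p = 0.501), with 6 of 6 mice at 1% above each other mean. It was -0.01 ± 0.12 at 0.05% against control (adjusted p = 0.997). The gene lies just above the filter, and with 1 added before the log the first 2 changes were 0.63 and 0.68.

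Cyp2e1, which oxidises ethanol and acetaminophen, had a mean of 13.50, and read 13.40, 13.50 and 13.68 in controls, 13.40, 13.53 and 13.68 at 0.05% and 13.33, 13.44 and 13.63 at 1%. Its changes were -0.06 ± 0.07 at 1% against control (limma adjusted p = 0.862), 0.02 ± 0.07 at 0.05% (adjusted p = 0.986) and -0.08 ± 0.07 between the doses (adjusted p = 0.781). Cyp2f2, the naphthalene-oxidising form of periportal hepatocytes, read 12.74, 12.85 and 13.11 in controls, 12.73, 12.92 and 13.01 at 0.05% and 12.83, 12.87 and 13.00 at 1%. Its changes were 0.02 ± 0.07 (limma adjusted p = 0.955), 0.03 ± 0.07 (adjusted p = 0.982) and -0.01 ± 0.07 (adjusted p = 0.987) in that order, and with the values as deposited the first was -0.10.

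Cyp2r1, a vitamin D 25-hydroxylase, read 8.37, 8.50 and 8.64 in controls, 7.91, 8.32 and 8.56 at 0.05% and 8.13, 8.35 and 8.59 at 1%. Its changes were -0.14 ± 0.11 at 1% against control (limma adjusted p = 0.741), -0.19 ± 0.11 at 0.05% (adjusted p = 0.937) and 0.04 ± 0.11 between the doses (adjusted p = 0.935). Cyp2a12, a steroid and bile acid 7-alpha hydroxylase, ran from 11.87 to 12.50 in controls, 12.16 to 12.53 at 0.05% and 12.04 to 12.42 at 1%. Cyp2g1, known from olfactory mucosa, lay below the filter (mean 4.52).

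**Figure D5:**
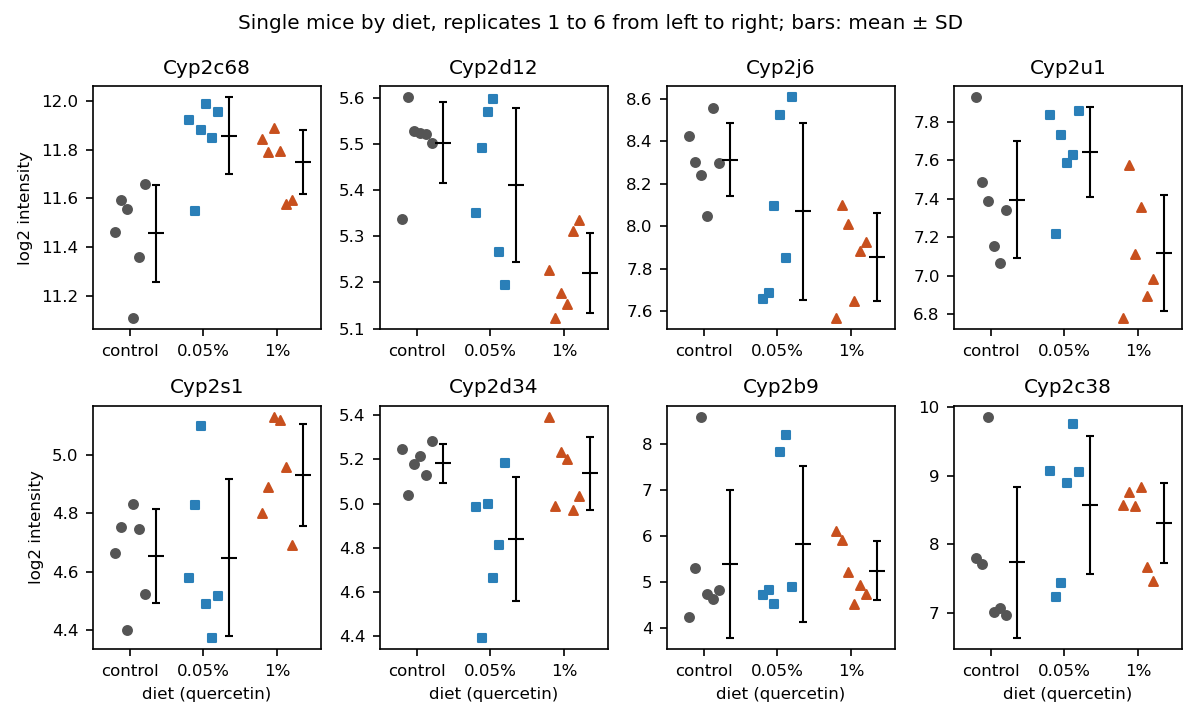
Log2 intensity of 8 members in single mice (points, by diet) with the mean and SD of each diet (bars, n = 6). Cyp2d12 at 1% (5.12 to 5.33) lies below every control (5.34 to 5.60), while in Cyp2b9 and Cyp2c38 single mice rise to 8.59 and 9.86 within the control diet.

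Genes that act with or upstream of the family were read from companion lists, and 0 members of any list passed in any comparison by limma. Of 13 tested P450 partners and enzymes of heme synthesis, 5 were higher at 1% against control (3 as deposited). At an unadjusted limma p under 0.05 there were 0 higher and 2 lower, beside 8.81% of all tested genes in either direction. The 2 were Cyb5r3, a cytochrome b5 reductase (-0.37 ± 0.13, limma adjusted p = 0.400), and Ppox, protoporphyrinogen oxidase (-0.22 ± 0.09, adjusted p = 0.491). Of 24 transcription regulators of P450 genes 11 were higher (6 as deposited). The smallest p belonged to Nr2f2, an orphan nuclear receptor (-0.42 ± 0.16, limma adjusted p = 0.446), and Bcl6, a transcriptional repressor (-0.52 ± 0.24, adjusted p = 0.552). At 0.05% against control both had changes of the other sign, 0.44 ± 0.16 for Nr2f2 (limma adjusted p = 0.859) and 0.92 ± 0.24 for Bcl6 (adjusted p = 0.610). Between the doses their changes were -0.86 ± 0.16 (limma adjusted p = 0.128) and -1.44 ± 0.24 (adjusted p = 0.079). Of the 24 regulators 13 were higher at 0.05% against control and 9 between the doses.

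A further 3 genes of these lists are given because of their size, which was seen first. Onecut1, a liver transcription factor also called HNF6, had a change of -1.67 ± 0.48 at 0.05% against control (limma adjusted p = 0.696) and of 2.18 ± 0.48 between the doses (adjusted p = 0.245). Ppara, the fatty acid receptor, had values of 0.81 ± 0.18 (limma adjusted p = 0.412) and -0.79 ± 0.18 (adjusted p = 0.245). Alas1, the rate-limiting enzyme of heme synthesis, had -1.11 ± 0.40 (limma adjusted p = 0.853) and 1.44 ± 0.40 (adjusted p = 0.316). At 0.05% Alas1 read 11.35, 10.71 and 10.75 in replicates 1 to 3 and 9.04, 9.02 and 9.17 in replicates 4 to 6. Its controls ran from 9.89 to 11.82. Onecut1 ran from 5.71 to 8.71 in controls and from 4.92 to 6.59 at 0.05%. Ppara ran from 9.30 to 10.17 in controls and from 10.21 to 10.81 at 0.05%. None of the changes of these genes passed the threshold, and both comparisons share the mice at 0.05%.

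Of 22 CAR and PXR targets outside the family 17 were higher at 1% against control, with a median log2 change of 0.14 beside -0.002 over all tested genes. With values as deposited 14 were higher, with a median of 0.03. At 0.05% 17 were higher (14 as deposited), with a median of 0.15. The smallest p at 1% belonged to Aldh1b1, an aldehyde dehydrogenase (-1.19 ± 0.33, limma adjusted p = 0.307), and Gadd45b, a stress-response gene (1.29 ± 0.43, adjusted p = 0.386). Of 24 other P450 genes 14 were higher at 1% (10 as deposited), and the smallest p belonged to Cyp39a1, an oxysterol 7-alpha hydroxylase (0.85 ± 0.18, limma adjusted p = 0.210), and Cyp4f14, a fatty acid omega-hydroxylase (-0.44 ± 0.12, adjusted p = 0.307).

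Lists that follow the liver zones also leaned low between the doses, where 23 of the 29 family members were lower. Of 19 pericentral genes outside the family, the zone of Cyp2e1, 2 were higher and 17 lower at 1% against 0.05% (median -0.17), and of 18 periportal genes, the zone of Cyp2f2, 4 were higher and 14 lower (median -0.13). Of 26 acute phase genes 25 were higher in that comparison (median 0.38, with 23 higher as deposited), and all 5 tested neutrophil markers were higher (median 0.60). Of 10 endothelial markers 10 were higher at 0.05% against control (median 0.17). At 1% against 0.05%, 8 of them were lower (median -0.12, with 10 lower as deposited). Their mean deviation ran from -0.20 to -0.02 in controls, from -0.04 to 0.16 at 0.05% and from -0.25 to 0.19 at 1%. No gene of these lists passed the threshold by limma, the lists share mice with the members, and the part of any of them in the Cyp2 values was not tested.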

How the data were processed

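The authors deposited 1 linear intensity per probe set and array; for the signal software, its scaling and the genome build, the sources used here give no name. Biotin-labelled RNA was made with a 3′ kit, per the labels' protocols. Of 45101 probe sets, 64 were controls, 34945 had 1 gene symbol, 932 several and 9160 none. Array medians of the deposited intensity ran from 14.2 to 21.9, so log2(intensity + 16) was quantile normalized here over all non-control probe sets. Genes above the 40th percentile of the mean (4.69) were tested with limma 3.58.1 in R 4.3.3 (lmFit, eBayes) on 3 group means of 6 mice, with 15 residual degrees of freedom, two-sided, Benjamini-Hochberg adjusted over 12881 genes at 0.05. The median standard error of a change was 0.13, a precision limited by how many arrays there are. The fit was tested on simulated data.

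The members, the companion lists and the tests were chosen with earlier results of these data known. Every tested member is named. Full values are given for the 5 smallest p of each comparison, the 5 largest SDs, the 5 highest means and 15 preset genes where a probe set of their own exists. From 4 companion lists the 2 genes with the smallest p at 1% against control are named. Counts of mice give those beyond the other group's mean, and list means are the mean deviation from the mean over 18 mice. Promoters were aligned with Biopython 1.88. Alternatives were other scalings, filters, probe set rules and pseudocounts, eBayes with trend, array weights, the replicate number as a block, only the arrays compared, and leaving out each array. Protein sequences were not used here, so protein identity was not computed.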

Additional observations from a re-analysis of the deposited data

Results flagged for a closer look

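Single mice far from the other 5 of their diet, by the gap to the nearest mouse as a share of the diet's range, were found in 8 of 102 groups examined. For independent groups chance gives about 1 in 20. These groups share mice and include subfamily means of the same genes, so the count cannot be weighed against that share. Control replicate 3 was the highest control for Cyp2b9 (8.59, next 5.31), for Cyp2b10 (6.25, next 4.77), for Cyp2c38 (9.86, next 7.80) and for the mean deviation of the Cyp2b genes (2.29, next -0.08). Control replicate 1 was the lowest control for Cyp2d12 (5.34, next 5.50). Replicate 2 on 0.05% quercetin was the lowest of its diet for Cyp2c68 (11.55, next 11.85). On 1% quercetin, replicate 4 was the lowest for Cyp2d9 (12.59, next 12.83) and replicate 5 for Cyp2d10 (12.69, next 12.78).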

How the results depend on the processing

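The count of members with an adjusted p under 0.05 stayed at 0 under all 111 combinations of comparison and alternative. The smallest adjusted p from limma over the alternatives ran from 0.228 to 0.768 at 1% against control, from 0.289 to 1.00 at 0.05% against control, from 0.274 to 0.794 between the doses and from 0.254 to 0.955 in the F test. With values as deposited the median change of members was -0.19, -0.03 and -0.19 in the 3 comparisons, and that of all tested genes -0.06, -0.01 and -0.05. Leaving out each array in turn moved the median from -0.08 to -0.01, from 0.002 to 0.08 and from -0.17 to -0.11. With values as deposited Cyp2f2 went from 0.02 to -0.10 at 1% against control, and the mean of the Cyp2d genes at 1% minus control went from -0.06 to -0.14; as deposited, no array is brought to a common scale. Over all tested genes, same-numbered mice did not consistently deviate together (correlations of their deviations between diets from -0.46 to 0.31, over 0.1 in 4 of 18). The main fit did not pair mice by number, and the replicate block called 0 members in each comparison. Alternatives that leave the Cyp2b genes below the filter give no Cyp2b mean. No alignment of proteins was run.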
